A study of Mus musculus with 30 samples.

Results

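The response of mouse liver to the lower of 2 doses of perfluorooctane sulfonate (PFOS), a persistent perfluorinated surfactant, was examined in wild-type (WT) mice by comparing the 5 arrays labeled WT 3 mg/kg with the 5 labeled WT 0 mg/kg. These 10 arrays were chosen by their labels alone, from 30 arrays in all, and every gene that passed a filter on weak signals was compared (12156 genes). The mice were males of strain 129S1/SvlmJ, 6 to 9 months old, and received the potassium salt of PFOS, or only the Tween 20 vehicle, by gavage once a day for 7 days. Each array held the liver RNA of 1 mouse. For reference, the text also uses the 5 WT mice given 10 mg/kg and, at 0 and 3 mg/kg, the 10 PPARα-null (Null) mice of strain 129S4/SvJae-Pparatm1Gonz/J, which lack a working gene for the nuclear receptor PPARα in every cell. The 5 Null mice given 10 mg/kg enter the check of labels, the filter on weak signals, and the fits of all arrays. All values are log2 expression levels as the authors normalized them, so that a difference of 1 is a doubling, and the number of arrays limits their precision.

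PPARα is a receptor for fatty acids and related ligands that is abundant in hepatocytes. With its partner RXR it binds DNA next to genes for the uptake, activation, and oxidation of fatty acids in mitochondria and peroxisomes, and it raises their transcription when a ligand is present. Another nuclear receptor of hepatocytes, the constitutive androstane receptor (CAR), raises genes of xenobiotic metabolism, among which the cytochrome P450 gene Cyp2b10 is the most used marker in mice.

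The libraries labeled WT 0 mg/kg were not alike in the genes that check these labels. In WT 0 mg/kg replicates 1, 2, and 3 the level of Ppara, averaged over its 3 kept probe sets, was 10.6, 10.5, and 10.3, whereas the libraries labeled WT 0 mg/kg replicates 4 and 5 read 8.66 and 8.74. The 15 Null arrays lay between 8.78 and 9.81 and the WT 3 mg/kg arrays between 9.93 and 10.4, so both libraries lay below every other array. Cyp2b10 read 8.16, 7.81, and 8.20 in replicates 1 to 3 and 12.8 and 12.9 in replicates 4 and 5, which lay above all 5 WT 3 mg/kg arrays (11.6 to 12.1). Counts, and the changes from 0 to 3 mg/kg in WT mice, are therefore given with all 10 arrays and again without these 2 libraries, which leaves 3 control arrays. Ppara and Cyp2b10 picked out the 2 libraries, so they are given no test without them.

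**Figure D1:**
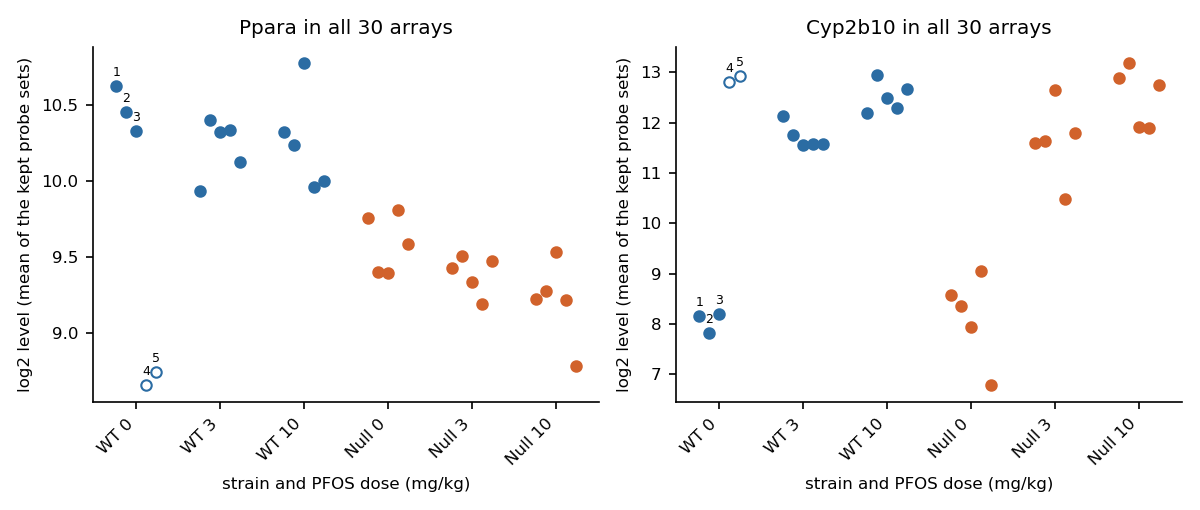
Log2 levels of Ppara (left) and Cyp2b10 (right), each the mean of 3 probe sets, in all 30 arrays by strain and PFOS dose; each point is 1 mouse, blue for WT and orange for Null, and WT 0 mg/kg arrays carry their replicate number. The open points, WT 0 mg/kg replicates 4 and 5, lie at 8.66 and 8.74 for Ppara, below all Null arrays, and at 12.8 and 12.9 for Cyp2b10, with the PFOS-treated arrays.

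The mean level of 13 hepatocyte markers lay between 13.5 and 13.6 in all 10 arrays, and array medians lay between 5.64 and 5.70. WT 0 mg/kg replicate 3 stood apart in immune genes, with a mean of 7.60 over 10 T, B, and NK cell markers against 6.01 to 6.41 in the other 9 arrays, and of 9.09 over 20 Kupffer cell and macrophage markers against 7.80 to 8.36. Replicates 4 and 5 were the highest for 26 genes of DNA replication and mitosis, at 7.28 and 7.08 against 6.03 to 6.43 elsewhere. They also had the highest means over 5 neutrophil markers, at 6.76 and 6.66 against 5.42 to 6.48. Their means over 2 adipocyte markers were the highest too, at 7.33 and 7.42 against 6.49 to 6.77. Neither list moved as a whole. The neutrophil marker S100a8 read 10.6 and 10.4 in replicates 4 and 5, against a mean of 5.38 in replicates 1 to 3. Csf3r (6.01 and 5.76 against 5.84) and Elane (5.77 and 5.79 against 5.85) moved little. Of the adipocyte markers, Pparg read 8.08 and 8.06 against 6.52, and Retn 6.58 and 6.78 against 6.59. The part of these differences in the results below was not tested.

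With all arrays, PFOS at 3 mg/kg changed few genes, and nearly all of them rose. At an adjusted p under 0.05 (limma, Benjamini-Hochberg) 30 of 12156 genes were called, 0.247% of those tested, with 29 higher (0.239%) and 1 lower (0.00823%). The rises ran from 1.27-fold to 11.3-fold, and 21 of the 30 genes changed at least 1.5-fold. In 29 of the 30 the 5 treated arrays did not overlap the 5 controls, a separation seen in 1.5% of all genes (0.979% higher and 0.518% lower), and without the 2 libraries described above in 10.1% (5% higher and 5.05% lower). Leaving out 1 array moved the count to between 12 and 36, and it fell to 17 without WT 0 mg/kg replicate 4 and to 18, 12, and 19 without WT 3 mg/kg replicates 1, 3, and 5. Cyp4a31, Decr1, Ech1, Eci1, Hsd17b11, Hsdl2, Retsat, Acadl, Aldh3a2, Cyp4a14, Ehhadh, and Slc6a16 were called whichever of the 10 arrays was left out. Slc6a16 read 4.77 to 5.29 in the controls and 5.84 to 6.10 in the treated arrays. No control reached 5.65, the limit of the filter on weak signals, so its call is not independent of that filter.

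Without WT 0 mg/kg replicates 4 and 5, 113 genes were called (0.93%), of which 85 were higher (0.699%) and 28 lower (0.23%). This count includes Cyp2b10, which had picked out the libraries, and is 112 without it. Of the 30 genes, 23 were called in both settings and all 30 kept their sign. The other 7, Oplah, Hadha, Ugt3a1, Ppp2r2d, Chrna2, Vnn1, and Hsd17b4, had adjusted p values of 0.0551 to 0.0782 without the 2 libraries. The count of 113 also moved with single arrays, over a range of 34 to 134. It was 50, 69, and 34 when WT 0 mg/kg replicate 1, 2, or 3 was also left out. Without WT 3 mg/kg replicate 1 or 3 it was 54 and 47. These fits hold fewer controls than those that left 1 array out of all 10, so the steadiness of the 2 counts cannot be compared.

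**Figure D2:**
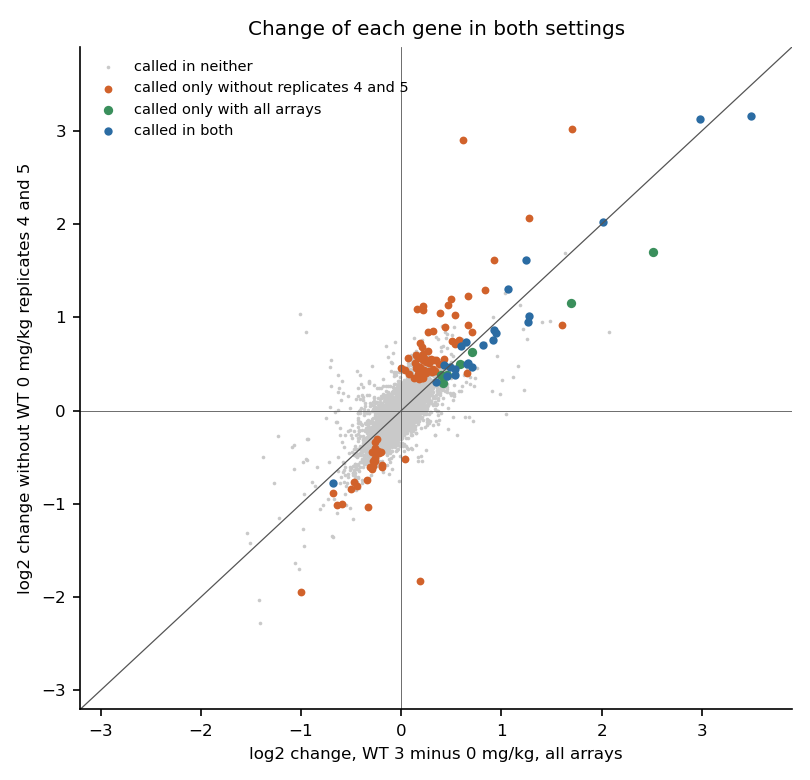
Log2 change of each gene between WT 3 and 0 mg/kg with all arrays (horizontal axis) and without WT 0 mg/kg replicates 4 and 5 (vertical axis); each point is a gene, colored by the setting in which it was called, and the diagonal marks equal change. Cyp2b10 is not drawn. Genes called in both settings (blue) lie along the diagonal, and genes called only without the 2 libraries (orange) lie away from 0 on the vertical axis and nearer to 0 on the horizontal one.

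With all arrays the 2 largest changes were those of Cyp4a14 and Cyp4a31, genes whose products hydroxylate the far end of fatty acids. Cyp4a31 (probe set 1440134_at) read 8.12, 7.78, 7.17, 7.98, and 8.11 in control replicates 1 to 5 and 10.87, 10.94, 10.70, 10.99, and 10.57 in the treated replicates. All 5 treated arrays lay far above all 5 controls, and the 2 doubted controls lay with the other 3. Its change was 2.98 ± 0.16 (SE, n = 5 and 5, 7.92-fold, limma adjusted p = 1.18e-07), and 3.13 ± 0.18 without the 2 libraries. Cyp4a14 (1423257_at) read 10.3, 11.1, 8.68, 8.64, and 9.76 in the controls and 13.1 to 13.2 in the treated arrays, a change of 3.49 ± 0.34 (11.3-fold, limma adjusted p = 8.53e-05), and 3.16 ± 0.34 without the 2 libraries. Its controls were widely spread while the treated arrays differed by little more than 0.1. The third measured member, Cyp4a12a, changed by 0.09 ± 0.08, and by 0.21 ± 0.07 without the 2 libraries, and was not called.

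In mitochondrial beta-oxidation, which shortens fatty acids step by step, 5 of 22 measured genes were called higher and none lower, with a median change of 0.27 beside -0.00356 over all genes. Without the 2 libraries 4 were called higher and the median was 0.16. Of all genes, 0.239% were called higher with all arrays and 0.699% without the 2 libraries. Auxiliary enzymes for unsaturated fatty acids led the group. Eci1, an enoyl-CoA isomerase, read 11.4, 11.7, 11.5, 11.2, and 11.5 in the controls and 12.4, 12.3, 12.4, 12.4, and 12.3 in the treated arrays, without overlap (change 0.93 ± 0.08, 1.90-fold, limma adjusted p = 6.29e-05, and 0.86 ± 0.09 without the 2 libraries). Decr1, the 2,4-dienoyl-CoA reductase, changed by 0.65 ± 0.07 (limma adjusted p = 0.000351) and by 0.74 ± 0.07 without the 2 libraries. Of the enzymes of the main cycle, Acadl, the long-chain acyl-CoA dehydrogenase, rose by 0.49 ± 0.06, and the subunits of the trifunctional protein, Hadha and Hadhb, rose by 0.46 ± 0.08 and 0.45 ± 0.07. Without the 2 libraries these 3 changes were 0.47 ± 0.08, 0.38 ± 0.09, and 0.37 ± 0.08. These were small changes of abundant transcripts, of under 1.5-fold, and Hadha was not called without the 2 libraries (limma adjusted p = 0.0607).

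Of 22 peroxisomal fatty acid enzymes, 5 were called higher with all arrays and 6 without the 2 libraries, and none lower, with medians of 0.36 and 0.26. The shares of all genes called higher were 0.239% and 0.699%. Ech1, a dienoyl-CoA isomerase, rose by 0.95 ± 0.09 (limma adjusted p = 6.29e-05), and by 0.83 ± 0.09 without the 2 libraries. Ehhadh, the bifunctional enzyme of peroxisomal beta-oxidation, read 11.10, 11.41, 10.99, 12.00, and 12.17 in the controls and 12.66, 12.67, 12.83, 12.82, and 12.92 in the treated arrays. The 2 doubted controls lay between the other controls and the treated group, so that the change was 1.25 ± 0.18 (2.37-fold, limma adjusted p = 0.00582) with all arrays and 1.61 ± 0.09 (3.06-fold, limma adjusted p = 4.03e-07) without them. Hsd17b4, the other bifunctional enzyme, rose by 0.42 ± 0.08, Acot8, a peroxisomal thioesterase, by 0.66 ± 0.11, and Ephx2, the soluble epoxide hydrolase, by 0.54 ± 0.10. For these 3 genes the doubted controls were the lowest of the 10 WT arrays compared. Without them the changes were 0.30 ± 0.07 (limma adjusted p = 0.0782), 0.51 ± 0.11, and 0.38 ± 0.08. Acaa1b, a thiolase, missed the threshold with all arrays (0.57 ± 0.11, limma adjusted p = 0.065) and passed it without the 2 libraries (0.75 ± 0.10, limma adjusted p = 0.00139). Pex11a, which acts in peroxisome division, was the only called member of 20 peroxins and membrane proteins, with a change of 0.66 ± 0.11, or 0.50 ± 0.10 without the 2 libraries. The fatty acid transporter Abcd3 lay just outside the threshold, at 0.30 ± 0.06 (limma adjusted p = 0.0518), and at 0.28 ± 0.07 without the 2 libraries.

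Genes that supply and move carnitine, which carries fatty acids into mitochondria, were positive in 9 of 9 measured members in both settings. With all arrays 2 were called higher, and 5 without the 2 libraries, beside 0.239% and 0.699% of all genes. Slc25a20, the carnitine-acylcarnitine carrier, read 10.8, 10.8, 10.6, 10.1, and 10.2 in the controls and 11.1 to 11.3 in the treated arrays. Its change was 0.71 ± 0.12 (limma adjusted p = 0.0273) with all arrays and 0.47 ± 0.08 (limma adjusted p = 0.0206) without the doubted controls, which were the lowest. Aldh9a1, an enzyme of carnitine synthesis, rose by 0.35 ± 0.06, and by 0.31 ± 0.06 without them. Crat, Cpt2, and the carnitine transporter Slc22a5 were called only without the 2 libraries, with changes of 1.29 ± 0.16, 0.41 ± 0.08, and 0.71 ± 0.13 (0.83 ± 0.24, 0.66 ± 0.13, and 0.53 ± 0.13 with all arrays).

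Other called genes of lipid and retinoid metabolism rose, apart from Acot11, which fell and is described with its values in a later paragraph. Retsat, the retinol saturase, read 9.47, 10.6, 9.44, 9.51, and 10.2 in the controls and 12.0, 11.9, 11.8, 11.9, and 11.6 in the treated arrays. No treated array overlapped a control, and the change was 2.01 ± 0.19 (4.03-fold, limma adjusted p = 7.8e-05) with all arrays and 2.02 ± 0.21 without the 2 libraries. Dhrs4, a retinal reductase, rose by 0.54 ± 0.09. Hsd17b11, a dehydrogenase found on lipid droplets, rose by 1.28 ± 0.17, Aldh3a2, the fatty aldehyde dehydrogenase, by 1.07 ± 0.16, and Hsdl2, a peroxisomal dehydrogenase-like protein, by 0.82 ± 0.12. Each of these was called in both settings, and without the 2 libraries the changes of Dhrs4, Hsd17b11, Aldh3a2, and Hsdl2 were 0.45 ± 0.09, 1.01 ± 0.15, 1.30 ± 0.14, and 0.70 ± 0.13. Vnn1, a pantetheinase that releases cysteamine from a product of coenzyme A breakdown, read 5.64, 5.55, 5.39, 3.36, and 3.64 in the controls and 6.78, 7.05, 7.50, 7.13, and 7.67 in the treated arrays. Every control lay under 5.65, the limit of the filter on weak signals, so its call is not independent of that filter. The groups did not overlap, yet the doubted controls were the lowest of these 10 arrays by a wide margin. Null means were 3.59 at 0 mg/kg and 3.54 at 3 mg/kg. The WT change of 2.51 ± 0.47 (limma adjusted p = 0.0413) became 1.70 ± 0.37 (limma adjusted p = 0.0551) without the doubted controls.

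Over 11 lists of fatty acid metabolism and PPARα target genes with 166 measured genes, 19 were called higher and 1 lower with all arrays, and 25 higher and 1 lower without the 2 libraries. The 19 are 11.4% of the 166, beside 0.239% called higher among all 12156 genes, and 0.699% without the 2 libraries. These lists were chosen with earlier results of these data known, so the counts are not independent support. The median change of the 166 genes was 0.17 in both settings. Of the 30 called genes, 20 were on these lists. The other 10 were Hsd17b11 and Dhrs4, given above, and Ctse (cathepsin E), Slc6a16 (a transporter), Vwa8, Kdsr (an enzyme of sphingolipid synthesis), Oplah (5-oxoprolinase, in the glutathione cycle), Ugt3a1 (a glycosyltransferase), Ppp2r2d (a subunit of protein phosphatase 2A), and Chrna2 (a subunit of nicotinic acetylcholine receptors). The changes of these last 8 ran from 0.40 ± 0.07 for Ppp2r2d to 1.70 ± 0.32 for Chrna2, which were 0.38 ± 0.09 and 1.16 ± 0.26 without the 2 libraries. Chrna2 was the only called gene whose groups overlapped, since control replicate 2 read 6.86 and treated replicate 2 read 6.78. Ctse rose by 1.26 ± 0.20 (0.95 ± 0.16 without the 2 libraries) on 1 of its 2 kept probe sets and changed by -0.29 on the other. Of the 18 called genes with more than 1 kept probe set, the other 17 had the same sign on all of them.

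The only fall with all arrays was that of Acot11, an acyl-CoA thioesterase, which read 7.24, 6.95, 7.29, 6.78, and 7.06 in the controls and 6.53, 6.08, 6.49, 6.70, and 6.12 in the treated arrays. The groups were separated by under 0.1, between control replicate 4 and treated replicate 4. The change was -0.68 ± 0.12 (limma adjusted p = 0.0285) with all arrays and -0.77 ± 0.13 (limma adjusted p = 0.014) without the 2 libraries. With all arrays as the start, the call was lost in 7 of the 10 fits that left out 1 array, those without WT 0 mg/kg replicate 1, 3, or 5 or WT 3 mg/kg replicate 1, 2, 3, or 5. The family did not move as 1 group, as described below for Acot1 to Acot4.

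**Figure D3:**
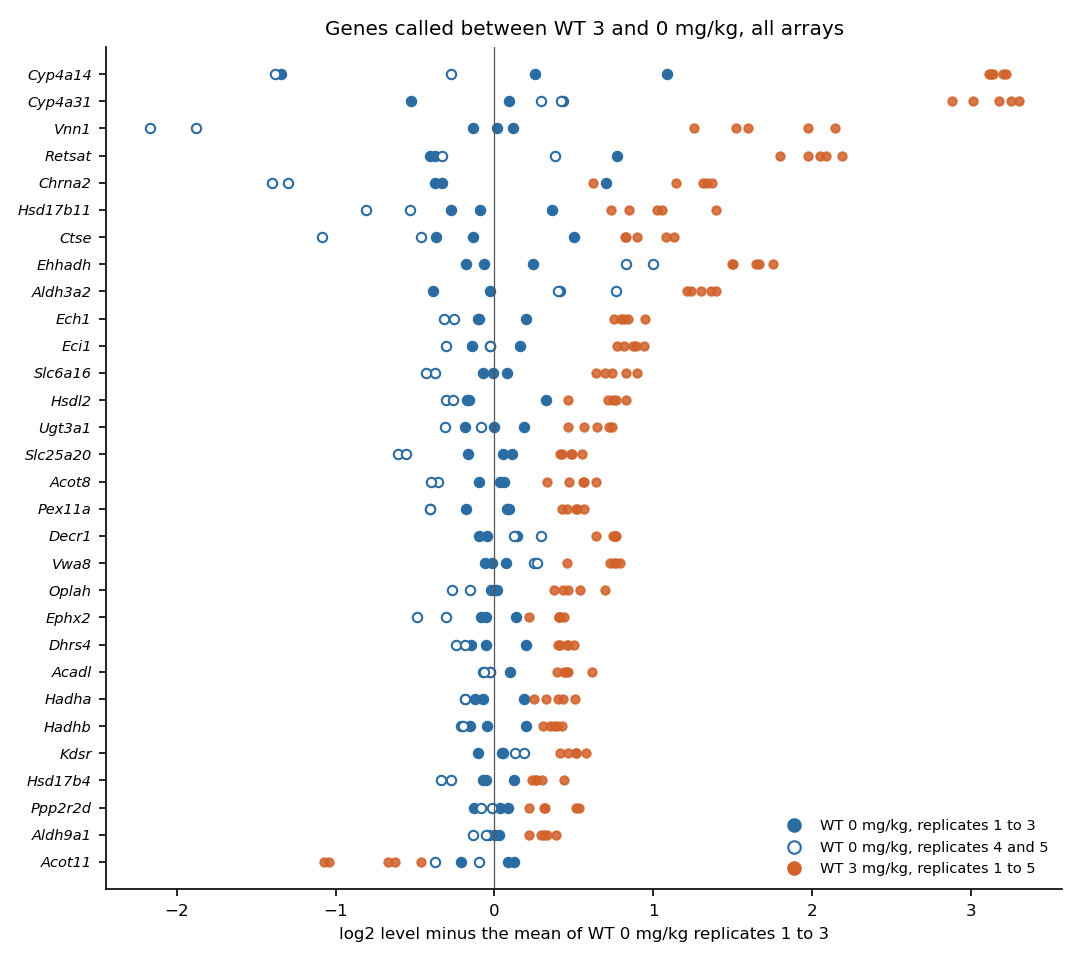
Log2 level of each of the 30 called genes in the 10 arrays (horizontal axis) minus the mean of WT 0 mg/kg replicates 1 to 3, in order of the change with all arrays; each point is 1 mouse. Treated arrays (orange) lie to the right of all controls for every gene but Chrna2, where they overlap, and Acot11, where they lie to the left, and the doubted controls (open) lie left of the other controls for many genes and right of them for Ehhadh, Vwa8, and Kdsr.

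The promoters of 4 of these genes are shown because the genes rose together, being those with the largest rises among the called genes that were matched to a promoter entry. The sequences are the 250 bases before the transcription start in RefSeq (GRCm38.p6), printed 5′ to 3′ on the strand of the gene, and capitals mark matches to AGGNCA on either strand, a loose form of the hexamer to which nuclear receptors such as PPARα bind. Retsat lies at chr6:72598352-72598601 (+), Hsd17b11 at chr5:104021797-104022046 (−), Ehhadh at chr16:21787835-21788084 (−), and Aldh3a2 at chr11:61267187-61267436 (−).
Retsat: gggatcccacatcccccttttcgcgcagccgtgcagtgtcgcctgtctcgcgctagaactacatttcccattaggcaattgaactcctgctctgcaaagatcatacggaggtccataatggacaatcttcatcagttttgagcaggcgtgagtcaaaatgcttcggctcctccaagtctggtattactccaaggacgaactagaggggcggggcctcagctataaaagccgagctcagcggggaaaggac
Hsd17b11: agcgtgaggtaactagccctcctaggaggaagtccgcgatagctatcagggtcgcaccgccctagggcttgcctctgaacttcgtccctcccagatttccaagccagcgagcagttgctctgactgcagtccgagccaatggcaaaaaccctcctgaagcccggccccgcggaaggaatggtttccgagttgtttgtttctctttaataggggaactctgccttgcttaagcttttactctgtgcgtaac
Ehhadh: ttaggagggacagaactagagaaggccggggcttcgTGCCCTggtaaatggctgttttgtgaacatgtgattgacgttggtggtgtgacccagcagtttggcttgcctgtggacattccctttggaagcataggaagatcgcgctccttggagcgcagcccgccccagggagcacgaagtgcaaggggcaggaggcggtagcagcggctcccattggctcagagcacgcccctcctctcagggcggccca
Aldh3a2: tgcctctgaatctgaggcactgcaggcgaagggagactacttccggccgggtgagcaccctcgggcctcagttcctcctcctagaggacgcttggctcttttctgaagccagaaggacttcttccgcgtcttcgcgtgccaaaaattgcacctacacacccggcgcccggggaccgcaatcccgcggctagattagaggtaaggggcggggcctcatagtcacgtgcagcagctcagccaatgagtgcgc
The hexamer AGGTCA was found in 0 of the 4 windows and in 14% of all 32851 promoter windows of the same length, and its direct repeat with 1 base between, AGGTCANAGGTCA, in 0 of the 4 and in 0.0335% of all. The loose hexamer AGGNCA, which contains AGGTCA, was found in 1 of the 4, the window of Ehhadh, and in 51.3% of all. Each search covered both strands, and no match says only that these letters are not in these windows.

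Of the 30 called genes, 19 were higher at 10 than at 3 mg/kg and 0 were lower by the same test, and 23 and 0 without the 2 libraries. The comparisons share the 3 mg/kg arrays, so values are given side by side. Cyp4a31 changed by a further 1.18 from 3 to 10 mg/kg (limma adjusted p = 0.0019), Pex11a by 0.92 (limma adjusted p = 0.00052), and Kdsr, which had changed by 0.43 at 3 mg/kg (0.50 without the 2 libraries), by 1.15 (limma adjusted p = 3.3e-06). Cyp4a14 differed by 0.13 between the doses (limma adjusted p = 0.86), at 13.3 ± 0.06 (SD, n = 5) with 10 mg/kg. Between 3 and 10 mg/kg 7.12% of all genes were called, and 14.6% without the 2 libraries.

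Of the 30 called genes, 12 had a smaller response in Null mice at an adjusted p under 0.05 (limma), and 4 had one without the 2 libraries. The 30 genes were chosen for their WT change, which enters this difference from the same arrays. A smaller Null response is therefore favored, and the count is not independent support. From 0 to 3 mg/kg, Cyp4a31 changed by 0.80 in Null mice, and the difference from the WT response was -2.19 (limma adjusted p = 0.0097), or -2.33 without the 2 libraries (limma adjusted p = 0.023). Decr1 and Acot8 also differed in both settings, with Null changes of 0.11 and -0.21. For Cyp4a14 the Null change was -0.13 and the difference from WT was -3.62, which did not pass the test (limma adjusted p = 0.13). Eci1, Ech1, Hsd17b11, Pex11a, Hadhb, Ctse, Slc6a16, Chrna2, and Vnn1 differed between genotypes with all arrays and not without the 2 libraries. Ehhadh, Acot1, Acot2, Pctp, and Psmd4 did so only without them, by -1.22, -2.40, -1.30, -0.85, and -0.51. Of all genes 1.04% were called for this difference with all arrays and 0.173% without the 2 libraries. Acadl, Aldh3a2, and Slc25a20, in contrast, rose in Null mice too, by 0.43, 0.79, and 0.54 (limma adjusted p of 0.0064, 0.017, and 0.01), where 5.38% of all genes were called.

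Leaving out the 2 libraries added 90 calls, 63 higher and 27 lower. In 86 of these 90 genes both libraries lay outside the range of the other 3 controls on the side of the treated arrays, and in 38 they lay beyond every treated array. Among all genes, 41% had both libraries outside the other controls on the side of the treated mean. The share of all genes with both beyond every treated array was not counted. Cyp2b10, which had picked out the libraries, is among the 90, 63, 86, and 38. Leaving out controls that lie toward the treated arrays favors a call, so these counts follow in part from how the 90 genes were found. The calls of this kind thus rest on the 3 remaining controls, and 2 of the 90 genes had the opposite sign with all arrays. The arrays were left out for their Ppara and Cyp2b10 levels, so calls in genes that vary with Cyp2b10 are not independent of that choice.

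Among these were acyl-CoA thioesterases, enzymes that release free fatty acids from coenzyme A. With all arrays, 1 of 12 measured members was called higher (Acot8) and 1 lower, and without the 2 libraries 5 were called higher and 1 lower. Among all genes, 0.247% and 0.93% were called in these settings, in either direction. Acot1, a cytosolic member, read 6.90, 7.85, and 5.96 in control replicates 1 to 3, 10.1 and 10.2 in replicates 4 and 5, and 10.0, 9.87, 9.92, 9.96, and 9.83 in the treated arrays. The doubted controls lay above every treated array, and the change was 1.71 ± 0.62 (limma adjusted p = 0.741) with all arrays and 3.02 ± 0.29 (8.09-fold, limma adjusted p = 0.000106) without them. For Acot2, Acot3, and Acot4 the doubted controls lay above replicates 1 to 3 and within the range of the treated arrays, with changes of 1.61 ± 0.18, 2.06 ± 0.39, and 1.03 ± 0.20 without the 2 libraries, and 0.93 ± 0.33, 1.27 ± 0.47, and 0.54 ± 0.27 with all arrays. Pctp, the phosphatidylcholine transfer protein, changed by 1.23 ± 0.14, and Acsl5, which activates fatty acids, by 0.45 ± 0.09, against 0.66 ± 0.27 and 0.31 ± 0.09 with all arrays.

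Genes of xenobiotic metabolism also depended on the controls used. Since Cyp2b10 picked out the 2 libraries, it was taken off the list of CAR and PXR target genes here, a choice made after seeing the data. Of the other 36 measured genes, 0 were called with all arrays and 5 without the 2 libraries, with medians of 0.10 and 0.37. The shares of all genes called in these settings were 0.247% and 0.93%. At an unadjusted p under 0.05 the limma test with all arrays gave 867 of the 12156 genes. The mean level of the 36 genes was 9.92 to 10.01 in control replicates 1 to 3, 10.29 to 10.47 in the treated arrays, and 10.88 and 10.9 in the doubted controls.

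Cyp2c55, a P450 that responds to CAR and PXR, read 6.57, 6.55, and 6.55 in control replicates 1 to 3 and 12.2 and 12.4 in replicates 4 and 5. The treated arrays, at 9.92, 9.41, 9.62, 9.74, and 8.64, lay between these sets of controls, so that the change was 0.62 ± 1.01 (limma adjusted p = 1) with all arrays and 2.91 ± 0.22 (7.50-fold, limma adjusted p = 1.26e-05) without the 2 libraries. It was called without the 2 libraries whichever further array was left out. Cyp2c37, Cyp2c50, and Cyp2c54 changed by 1.14 ± 0.16, 0.46 ± 0.08, and 0.61 ± 0.10 in that setting, and by 0.47 ± 0.32, 0.15 ± 0.15, and 0.21 ± 0.19 with all arrays. Of the glutathione transferases, which conjugate electrophiles, Gstt3, Gstt2, Gstm3, and Gstm4 changed by 1.20 ± 0.18, 0.75 ± 0.11, 1.08 ± 0.17, and 1.04 ± 0.12 without the 2 libraries, and by 0.49 ± 0.34, 0.51 ± 0.14, 0.22 ± 0.40, and 0.38 ± 0.31 with all arrays. The carboxylesterases Ces1g and Ces1e changed by 1.13 ± 0.19 and 0.92 ± 0.17 without the 2 libraries. In the same setting Nqo1 and Gsr, both targets of the transcription factor NRF2, changed by 0.85 ± 0.15 and 0.54 ± 0.10. With all arrays the changes of Ces1g, Ces1e, Nqo1, and Gsr were 0.22 ± 0.44, 0.67 ± 0.19, 0.27 ± 0.28, and 0.22 ± 0.17. None of the genes in this paragraph was called with all arrays.

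Subunits of the proteasome, which degrades tagged proteins, were positive in 34 of 35 measured genes with all arrays and in 35 of 35 without the 2 libraries, with medians of 0.15 and 0.27. None was called with all arrays. Without the 2 libraries, where 0.93% of all genes were called, 6 were called. These were Psma7 (0.55 ± 0.10), Psmb4 (0.54 ± 0.11), Psma1 (0.41 ± 0.09), Psmd4 (0.41 ± 0.07), Psmd3 (0.39 ± 0.08), and Psmd7 (0.37 ± 0.07). With all arrays the changes of Psma7, Psmb4, Psma1, Psmd4, Psmd3, and Psmd7 were 0.30 ± 0.14, 0.35 ± 0.13, 0.20 ± 0.12, 0.25 ± 0.09, 0.22 ± 0.10, and 0.18 ± 0.10. None of these 6 was called when WT 0 mg/kg replicate 1 or 3 or WT 3 mg/kg replicate 1 was also left out, and Psmb4 was not called without any further array. Averaged over the list, the level was 10.2 to 10.4 in control replicates 1 to 3, 10.7 and 10.6 in the doubted controls, and 10.5 to 10.7 in the treated arrays.

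Rdh16 and Rdh11, dehydrogenases of retinoids, changed by 0.73 ± 0.09 and 0.85 ± 0.16 without the 2 libraries, and Acaca, the first enzyme of fatty acid synthesis, by 0.36 ± 0.07, against 0.56 ± 0.11, 0.31 ± 0.27, and 0.22 ± 0.08 with all arrays. Of 22 genes of cholesterol synthesis 0 were called in either setting, and their median of 0.43 without the 2 libraries became 0.05 when WT 0 mg/kg replicate 2 was also left out. Angptl4, an inhibitor of lipoprotein lipase and a known target of PPARα, changed by 0.55 ± 0.13 (limma adjusted p = 0.168) with all arrays and by 0.43 ± 0.14 (limma adjusted p = 0.247) without the 2 libraries. Serpina7, the thyroxine-binding globulin, changed by 1.64 ± 0.35 (limma adjusted p = 0.0966) and 1.69 ± 0.42 (limma adjusted p = 0.104).

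Falls were found mainly without the 2 libraries, with 28 called. Dio1, the deiodinase that activates thyroid hormone, read 10.5, 9.98, and 10.6 in control replicates 1 to 3, 5.13 and 5.57 in replicates 4 and 5, and 8.19, 7.68, 8.71, 9.57, and 8.65 in the treated arrays. Its direction turned with the choice of controls, from 0.19 ± 0.93 (limma adjusted p = 1) with all arrays to -1.83 ± 0.36 (limma adjusted p = 0.0314) without the 2 libraries. The largest called fall was that of 9030619P08Rik (-1.95 ± 0.25, and -1.004 ± 0.46 with all arrays), a gene of unstated function, followed by Dio1. Cela1, an elastase, Ntrk2, a neurotrophin receptor, and Lifr, the receptor of leukemia inhibitory factor, changed by -1.03 ± 0.20, -1.01 ± 0.15, and -1.01 ± 0.19 without the 2 libraries, and by -0.33 ± 0.35, -0.64 ± 0.20, and -0.59 ± 0.24 with all arrays. Cyp7b1, an enzyme of the alternative pathway of bile acid synthesis, changed by -0.81 ± 0.17, and the transcription factor Nfia, the cell death gene Bmf, and Trim7 by -0.63 ± 0.13, -0.74 ± 0.12, and -0.77 ± 0.16. With all arrays the changes of Cyp7b1, Nfia, Bmf, and Trim7 were -0.44 ± 0.21, -0.29 ± 0.19, -0.35 ± 0.20, and -0.47 ± 0.19. When WT 0 mg/kg replicate 1, 2, or 3 was also left out, 14, 10, and 2 falls were called, and without WT 3 mg/kg replicate 1, 3, or 5 the counts were 8, 10, and 14. Dio1 itself was called when WT 3 mg/kg replicate 2 or 4 was left out and for no other further array. Cyp7a1, the rate-limiting enzyme of the classical pathway, ranged from 7.27 to 10.4 in the treated arrays and from 8.15 to 12.1 in the controls, and was not called in either setting (-1.23 ± 0.69 and -0.27 ± 0.67).

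Complement and coagulation factors, which hepatocytes secrete, were negative in 36 of 42 measured genes with all arrays and in 42 of 42 without the 2 libraries, with medians of -0.12 and -0.19. The only member called was F11, coagulation factor XI, without the 2 libraries (-0.84 ± 0.15, limma adjusted p = 0.024, and -0.50 ± 0.21 with all arrays), and it was not called when WT 0 mg/kg replicate 3 was also left out (limma adjusted p = 0.151), nor without WT 0 mg/kg replicate 2 or WT 3 mg/kg replicate 1 or 3. The mean level of the 42 genes was highest in WT 0 mg/kg replicate 3, at 11.53 against 11.35 in replicates 1 and 2. It was 11.07 to 11.26 in the treated arrays, and the doubted controls lay within that range, at 11.25 and 11.12.

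**Figure D4:**
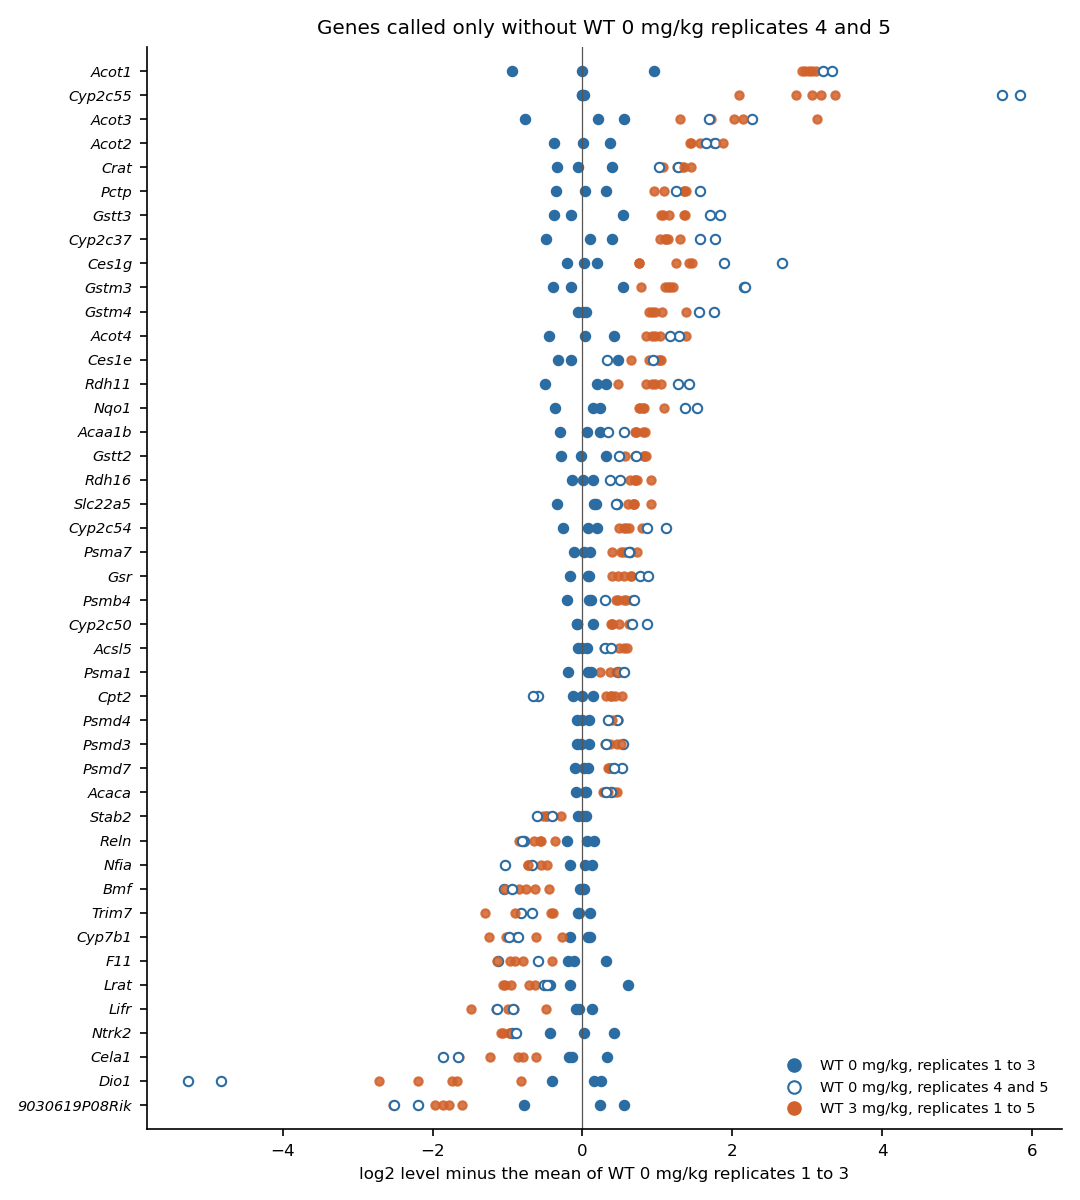
Log2 level of 44 named genes that were called only without WT 0 mg/kg replicates 4 and 5 (horizontal axis) minus the mean of WT 0 mg/kg replicates 1 to 3, in order of the change without the 2 libraries; each point is 1 mouse. The doubted controls (open) lie with the treated arrays (orange) or beyond them for most genes, as for Acot1, Cyp2c55, and Dio1, and on the far side of the other controls for Cpt2.

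Most measured markers of stellate cells, endothelial cells, and Kupffer cells had negative changes. The 4 measured cholangiocyte markers had medians near 0, at -0.03 with all arrays and -0.05 without the 2 libraries. In bulk RNA fewer cells of a type and less RNA per cell cannot be told apart. Of 14 stellate cell and fibroblast markers, 3 were positive with all arrays and 0 without the 2 libraries, with medians of -0.21 and -0.34. Their mean level was 7.99 to 8.30 in control replicates 1 to 3 and 7.61 to 7.83 in the treated arrays. The doubted controls, at 7.71 and 7.73, lay within the treated range. Lrat, which esterifies retinol, and Reln were called lower without the 2 libraries (-0.88 ± 0.19 and -0.59 ± 0.12, and -0.68 ± 0.17 and -0.28 ± 0.17 with all arrays), and neither was called when WT 0 mg/kg replicate 2 or 3 or WT 3 mg/kg replicate 1, 2, 3, or 5 was also left out, nor was Lrat without WT 3 mg/kg replicate 4. Of 16 endothelial markers, the scavenger receptor Stab2 was called lower without the 2 libraries (-0.44 ± 0.08, and -0.23 ± 0.11 with all arrays), and not when WT 0 mg/kg replicate 1, 2, or 3 or WT 3 mg/kg replicate 1, 3, or 5 was also left out. Of the 20 Kupffer cell and macrophage markers 0 were called in either setting, and their median without the 2 libraries, -0.30, was -0.02 without WT 0 mg/kg replicate 3 as well. The same holds for 29 genes of the immunoproteasome, antigen presentation, and interferon response, with -0.36 and -0.01. Mpeg1 and Col3a1, a macrophage and a fibroblast gene, changed by -0.58 ± 0.23 and -0.98 ± 0.33 with all arrays and by -0.65 ± 0.27 and -1.27 ± 0.36 without the 2 libraries, and were called in neither setting.

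No member was called in either setting among 44 genes of the urea cycle and amino acid breakdown, 23 apolipoproteins and lipoprotein genes, 51 genes of the respiratory chain and ATP synthase, 36 ribosomal proteins, 26 genes of DNA replication and mitosis, 16 genes of the circadian clock, or 28 acute-phase proteins. The median of the DNA replication list went from -0.26 with all arrays to 0.06 without the 2 libraries, which were the highest for these genes. Medians of the other lists named here lay between -0.25 and 0.08 in both settings.

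**Figure D5:**
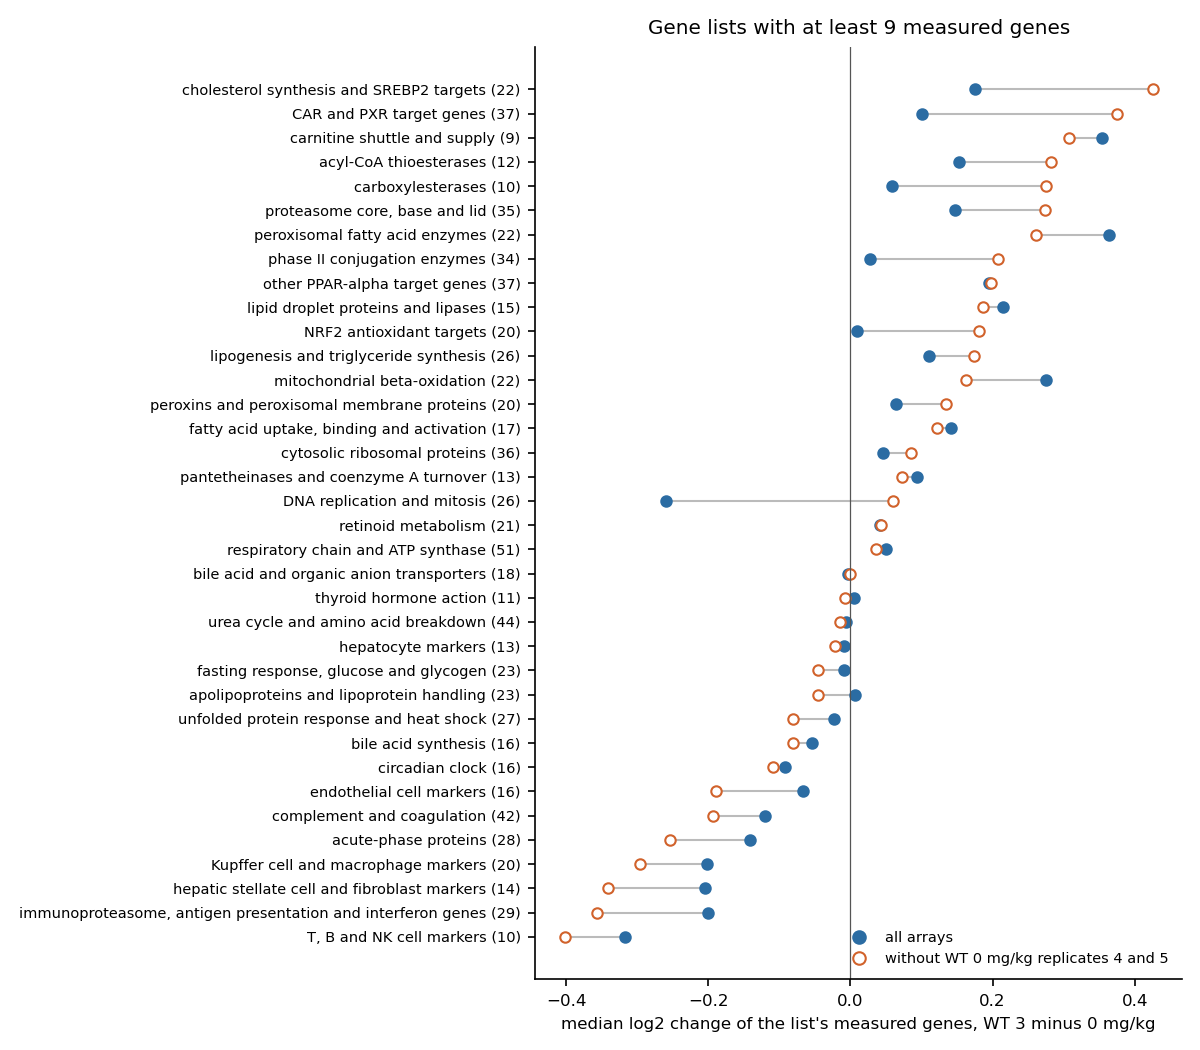
Median log2 change between WT 3 and 0 mg/kg of 36 gene lists with at least 9 measured genes (number in parentheses), with all arrays (blue) and without WT 0 mg/kg replicates 4 and 5 (open orange); the gray line joins both values of a list. Lists of fatty acid oxidation lie right of 0 in both settings, CAR and PXR target genes, drawn with Cyp2b10 among them, move from 0.10 to 0.37, and immune and stellate cell markers lie left of 0.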

How the data were processed

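Liver RNA of 30 mice, 1 Affymetrix mouse genome array each, was measured by the authors, who adjusted the background, quantile normalized, and summarized the probes by RMA. The values they deposited are log2 expression levels of 45101 probe sets. After 64 control probe sets were removed, 24069 probe sets passed a filter on weak signal, which asked for a value over 5.65, the overall median, on 5 or more arrays. Names came from a platform annotation table (34958 probe sets with 1 gene symbol, 932 with several, 9211 with none), and only probe sets with 1 symbol were named. A gene with several probe sets was read from that with the lowest F-test p across WT doses, a choice that uses the outcome, and kept it in every setting unless stated otherwise. Groups came from the sample labels, and no file held columns of other samples.

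The 15 WT arrays were fitted together by lmFit and eBayes (limma 3.58.1, R 4.3.3), and 13 without WT 0 mg/kg replicates 4 and 5. The genotype difference was an interaction in a fit of all arrays. Tests were two-sided, p was adjusted by Benjamini-Hochberg across the 24069 probe sets, with calls made under 0.05. The study's methods give an unadjusted p of 0.0025 and pairwise comparisons after a one-way analysis across dose, tried as an alternative (the methods' t-test). All arrays were labeled and hybridized together per the methods, and batches were not modeled. The steps were tested on simulated data.

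The genes, 44 gene lists, and tests were chosen with earlier results of these data known. Genes named in the text were drawn from the called genes, the 20 largest rises and falls without the 2 libraries, Ppara, Cyp2b10, and list members that were called or had the 3 smallest p of a list. The loose motif was added after seeing the promoters. WT 0 and 3 mg/kg shared replicate numbers, which did not pair the arrays (below). Promoter sequences are from RefSeq, and figures were drawn with matplotlib 3.10.9.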

Additional observations from a re-analysis of the deposited data

Results flagged for a closer look

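In 10 of 178 sets of 5 arrays the highest or lowest array stood apart from the other 4 by Dixon's test, about the 1 in 20 that chance gives. These were WT 3 mg/kg replicate 2 for Decr1 (12.1, lowest), Vwa8 (9.01, lowest), Psmb3 (10.49, lowest), and Slc22a5 (9.79, highest), replicate 5 for Ephx2 (12.7, lowest) and Gstm3 (12.6, lowest), replicate 1 for Cyp2b10 (12.2, highest), and replicate 3 for Nqo1 (7.56, highest), and WT 0 mg/kg replicate 2 for Acadl (11.9, highest) and Hsdl2 (10.1, highest). The test looks at 1 extreme array at a time. Arrays that deviate together, such as WT 0 mg/kg replicates 4 and 5 for Cyp2c55, hide each other, so the rate does not describe them.

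Null and WT mice responded differently to 3 mg/kg for 20 of the 89 genes examined one by one, at an adjusted p under 0.05 (limma interaction, all arrays). Of all genes 1.04% passed this threshold, and 0.173% without WT 0 mg/kg replicates 4 and 5. For genes chosen for their WT change, that change enters the difference from the same arrays. The Null minus WT difference in log2 change was -2.19 for Cyp4a31, -0.87 for Eci1, -0.74 for Ech1, -0.54 for Decr1, -0.82 for Slc6a16, -1.30 for Hsd17b11, -0.44 for Hadhb, -0.79 for Pex11a, -1.28 for Ctse, -0.87 for Acot8, -1.77 for Chrna2, -2.55 for Vnn1, -1.62 for Fitm1, -1.91 for Serpina7, -0.48 for Vnn3 (a pantetheinase), and -0.73 for Psmb3 (a proteasome subunit). It was positive for Cyp7a1, at 3.99, where the Null change was 2.77 and the WT change was -1.23 ± 0.69. For Cyp7a1 it was 3.04 (limma adjusted p = 0.123) without WT 0 mg/kg replicates 4 and 5, where the WT change was -0.27 ± 0.67. The cell division genes Cdc20 and Top2a also had a positive difference, at 2.38 and 1.99 (1.68 and 1.36 without these 2 libraries), as did Masp1, a complement protease, at 0.49. Replicates 4 and 5 were the highest WT controls for Cyp7a1, Cdc20, and Top2a. Without WT 0 mg/kg replicates 4 and 5, the difference passed the same threshold for Cyp4a31, Decr1, Acot8, and Psmb3 among these genes.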

How the results depend on the processing

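The 30 calls with all arrays (29 higher, 1 lower) became 16 (16 and 0) with WT 0 and 3 mg/kg alone in the fit, 18 (18 and 0) with the methods' t-test adjusted by Benjamini-Hochberg, 86 (71 and 15) with that test at an unadjusted p of 0.0025, and 98 (82 and 16) with limma at that limit. Without WT 0 mg/kg replicates 4 and 5 they became 113 (85 and 28), or 126 (93 and 33) with the probe sets chosen again. Other alternatives gave 21 to 43 calls. The single fall, Acot11, was not called (0 falls) with the probe set of highest mean or with the replicate block, and 2 falls were called with all 30 arrays in the fit. The replicate numbers did not pair the arrays, since deviations of same-numbered WT 0 and 3 mg/kg arrays correlated at -0.189 to 0.0912 and 0 of 5 control arrays correlated best with their own number, and the replicate block gave 23 calls (23 and 0). Leaving out each array gave 12 to 36 calls (12 to 35 higher and 0 to 4 lower), and, without the 2 libraries, 34 to 134 (32 to 106 and 2 to 34). Genes called between WT 10 and 3 mg/kg went from 866 to 1780 without the 2 libraries, which enter only the spread there, and those that differed between genotypes from 126 to 21. Of single genes, Ctse turned to -0.29 and Top2a to 0.059 with the probe set of highest mean, Cdc20 to 0.40 without the 2 libraries with the probe sets chosen again, and Dio1 to -0.16 with array weights and -1.83 without the 2 libraries. With 1 array left out, Dio1 ranged from -0.62 to 0.75, Gstm3 from -0.10 to 0.54, and Ces1g from -0.064 to 0.65, and, without the 2 libraries, Cyp7a1 from -0.89 to 0.40. The causes were not tested. Depth has no meaning for these arrays, and 3 or 5 controls limit what small changes could be called.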
